A study of Bos taurus with 22 samples.

Results

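TPMT (ENSBTAG00000019300), the gene of thiopurine S-methyltransferase, is 1 of 27607 annotated genes in the raw counts of white blood cells from 22 heifers. Of these genes, 4389 had no count in any heifer. TPMT is described here by its transcript abundance, heifer by heifer. It was chosen by its difference between Fertile and Sub-Fertile heifers, since it was among 25 genes with an unadjusted p under 0.01 in the edgeR quasi-likelihood test and in both DESeq2 tests. That difference is therefore given as a description, with no test. The p-values also rest on the spread among heifers of a group, so the spread of TPMT is likewise a description. The breed difference, the interaction of breed and fertility and the correlations with other genes were not used to choose TPMT. The breed and interaction tests rest on that same spread, which the choice favours to be small. Their p-values and standard errors may therefore lean low.

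TPMT is a cytosolic enzyme that moves a methyl group from S-adenosylmethionine to the sulfur atom of aromatic and heterocyclic thiols. It is best known for inactivating thiopurine drugs such as 6-mercaptopurine and azathioprine, which otherwise are turned into thioguanine nucleotides that harm dividing white blood cells. In people, variants of the gene lower its activity, which is measured in blood cells, and no natural substrate of it is firmly established.

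The heifers were purebred. The 5 Angus Fertile and 7 Angus Sub-Fertile heifers averaged 14 months of age at first insemination and had carried a progesterone device for 7 days, while the 5 Holstein Fertile and 5 Holstein Sub-Fertile heifers averaged 12 months and had carried the device for 5 days. Fertile heifers calved after 1 insemination, Angus Sub-Fertile heifers did not conceive after 2 inseminations and exposure to a bull, and Holstein Sub-Fertile heifers needed 4 or more. All heifers had also been given gonadotrophin-releasing hormone and prostaglandin F2 alpha for synchronization, and the sources name no thiopurine. Breed cannot be told apart from age, synchronization protocol and management. Every heifer gave 1 library of polyadenylated RNA from the buffy coat after lysis of red blood cells, at the time of the first insemination. The total number of counts per library ranged from 12182400 to 49228035 (median 23158374).

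Levels are given as CPM, the count of the gene divided by the total of its library and multiplied by 1000000. The annotation used by the study places TPMT on chromosome 23 of the ARS-UCD1.2 assembly, at positions 39431808 to 39454562, as a protein-coding gene that spans 22755 bp. In the RefSeq gene table of a later cattle assembly, TPMT overlaps the neighbouring gene KDM1B by 803 bp. The libraries were stranded, but no source says whether the counting used the strand, so the assignment of reads in that overlap is uncertain. White blood cells are a mixture, and for every value below, fewer cells of a type and less RNA per cell cannot be told apart.

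TPMT was measured in all 22 heifers, with between 261 and 1407 counts. Its level had a mean of 28.9 CPM ± 3.39 (SD, n = 22), and the highest heifer was 1.65 times the lowest. Counting error was small beside this range, since its coefficient of variation lay between 2.67% and 6.19% for a single heifer.

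Among Angus Fertile heifers, TPMT was at 21.4 CPM in heifer 21, 24.0 in heifer 19, 24.5 in heifer 18, 28.6 in heifer 20 and 28.7 in heifer 22. Among the 7 Angus Sub-Fertile heifers, the lowest level was 26.0 CPM in heifer 15, the median 30.6 in heifer 11 and the highest 33.9 in heifer 16. The Angus groups overlapped between 26.0 and 28.7 CPM, where the lowest 2 of the Sub-Fertile and the highest 2 of the Fertile heifers lay, and 5 of 7 Sub-Fertile heifers were above every Fertile heifer. Among Holstein Fertile heifers, TPMT was at 26.0 CPM in heifer 10, 27.0 in heifer 7, 29.0 in heifer 6, 29.5 in heifer 9 and 29.8 in heifer 8. Among Holstein Sub-Fertile heifers, it was at 27.5 CPM in heifer 1, 31.8 in heifer 3, 31.9 in heifers 5 and 2, and 35.3 in heifer 4. A single Holstein Sub-Fertile heifer, heifer 1, lay within the range of the Holstein Fertile heifers, and the other 4 of 5 were above all of them.

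**Figure D1:**
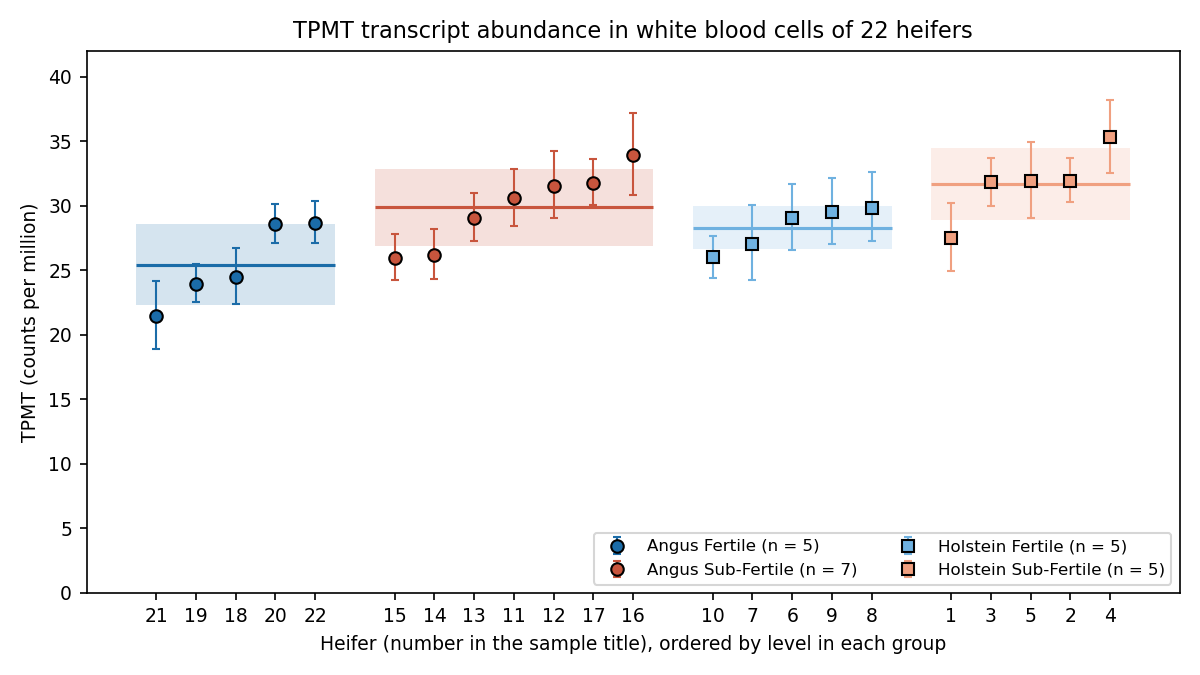
TPMT transcript abundance in CPM for each of the 22 heifers, by group; bars are 95% exact Poisson intervals, which cover counting error only, and the line and band are the mean ± SD of the group. Means run from 25.4 CPM in Angus Fertile to 31.7 CPM in Holstein Sub-Fertile heifers, and the ranges of neighbouring groups overlap.

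The group means, from the lowest to the highest, were 25.4 CPM ± 3.15 (SD, n = 5) for Angus Fertile heifers and 28.3 CPM ± 1.68 (SD, n = 5) for Holstein Fertile heifers. Angus Sub-Fertile heifers came next, at 29.9 CPM ± 2.95 (SD, n = 7), and Holstein Sub-Fertile heifers were highest, at 31.7 CPM ± 2.78 (SD, n = 5). Each step in this order was smaller than the larger SD of single heifers in the groups on either side of it. The steps were not tested. Over both breeds, the mean was 26.9 CPM ± 2.82 (SD, n = 10) in Fertile and 30.6 CPM ± 2.91 (SD, n = 12) in Sub-Fertile heifers.

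In the edgeR model with terms for breed and fertility, the log2 fold change of TPMT in Fertile relative to Sub-Fertile heifers was −0.20 (standard error 0.062), a level 1.15-fold higher in Sub-Fertile heifers. The contrast chose the gene, so this size has no test here. It was −0.23 (standard error 0.097) in a fit of Angus alone and −0.16 (standard error 0.079) in a fit of Holstein alone. Counted over single heifers, the Fertile animal was lower in 31 of 35 Angus pairings and in 22 of 25 Holstein pairings. In the same contrast 2.62% of 13526 tested genes had an unadjusted p under 0.05 (1.66% higher and 0.954% lower in Fertile heifers), and no gene had an adjusted p under 0.05 with edgeR's quasi-likelihood test and Benjamini-Hochberg adjustment (354 genes at an unadjusted p under 0.05) or with DESeq2 (529 genes).

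The question whether breeds differ in TPMT could be tested, though on a spread that the choice of TPMT favoured to be small. Holstein heifers had a log2 fold change of 0.12 (standard error 0.061) relative to Angus, a 1.08-fold higher level, with an adjusted p of 0.488 in edgeR's quasi-likelihood test with Benjamini-Hochberg adjustment (0.0720 before adjustment). The 2-sided exact permutation test of breed within fertility groups gave p = 0.0561 over all 199584 regroupings. The difference of TPMT between breeds thus did not pass a threshold of 0.05 with either test. With DESeq2 the unadjusted p was 0.0483 and the adjusted p 0.382, and with TMM factors in edgeR they were 0.0499 and 0.430. In the breed contrast 10.6% of tested genes had an unadjusted p under 0.05, and at an adjusted p under 0.05 there were 0 genes with edgeR (1439 at an unadjusted p under 0.05) and 10 with DESeq2.

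The breed difference of TPMT was 0.15 on the log2 scale (standard error 0.100) among Fertile heifers and 0.087 (standard error 0.084) among Sub-Fertile heifers. Angus heifers were below Holstein heifers in 21 of 25 pairings of Fertile animals and in 27 of 35 pairings of Sub-Fertile animals. The interaction of breed and fertility, which asks whether the fertility difference was of another size in Holstein than in Angus, was 0.063 on the log2 scale (standard error 0.125, adjusted p = 0.865, edgeR's quasi-likelihood test with Benjamini-Hochberg adjustment). A difference between breeds in the fertility contrast was not detectable with these numbers of heifers, at a standard error of that size. For this interaction 10.4% of tested genes had an unadjusted p under 0.05.

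The spread of TPMT among heifers of the same group is given as a description, since a rule on p favours genes of small spread. The pooled within-group SD was 0.140 on the log2 scale, a 1.10-fold spread, against a median of 0.218 over tested genes, and 21.8% of tested genes had a smaller SD. The biological coefficient of variation of edgeR is an estimate of the spread beyond counting error. For a single gene it is drawn towards the trend for genes of that level. It was 0.104 for TPMT, against 0.182 on the trend, and 18.3% of tested genes had a smaller one. Counting error made up 17.3% of the within-group variance of TPMT over all groups. The share was 56.4% among Holstein Fertile heifers, the group with the smallest coefficient of variation (5.94%), and 10.8% among Angus Fertile heifers, the group with the largest (12.4%). Counting error itself was alike in these groups, at a coefficient of variation of 4.46% in Holstein Fertile and 4.06% in Angus Fertile heifers, so the shares differ mostly by the spread of the groups. The single heifer with the largest counting error was heifer 21, an Angus Fertile heifer.

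Some heifers had transcriptomes much nearer to each other than to all others. There were 8 such close pairs, with a biological coefficient of variation between 2 heifers of 0.0377 to 0.0828 against 0.0980 to 0.260 in the other 223 pairings, and all 8 joined heifers of different groups. Neither the labels nor the methods give a reason for the pairs. TPMT differed within close pairs by 0.0186 to 0.326 on the log2 scale (median 0.121), and in the other pairings by 0.000840 to 0.718 (median 0.160).

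In 6 close pairs a Fertile heifer was paired with a Sub-Fertile heifer, and TPMT was lower in the Fertile heifer of 5 of these pairs. The exception was heifer 20 (Angus Fertile, 28.6 CPM) beside heifer 14 (Angus Sub-Fertile, 26.2 CPM). In 4 close pairs an Angus heifer was paired with a Holstein heifer, and TPMT was higher in the Angus heifer of 3 of these pairs, the opposite of the direction over all heifers. In heifers 7 and 16 and in heifers 8 and 12, the Angus heifer was also the Sub-Fertile one, so these pairs enter both counts. The pairs that crossed breed alone went opposite ways. TPMT was higher in Angus heifer 11 (30.6 CPM) than in Holstein heifer 1 (27.5 CPM). It was lower in Angus heifer 18 (24.5 CPM) than in Holstein heifer 10 (26.0 CPM). With the close pairs as blocks in the model, which leaves the comparison within pairs, the fertility difference was −0.055 (standard error 0.058) and the breed difference −0.082 (standard error 0.073). In this fit, which estimates both differences together, the fertility difference of TPMT was thus smaller than its standard error, and the breed difference had the opposite sign. Taken singly, the 6 pairs that joined the fertility groups had a median Sub-Fertile minus Fertile difference of 0.0987 on the log2 scale (−0.125 to 0.327). In the 4 pairs that joined the breeds, Holstein minus Angus had a median of −0.117 (−0.327 to 0.0868).

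**Figure D2:**
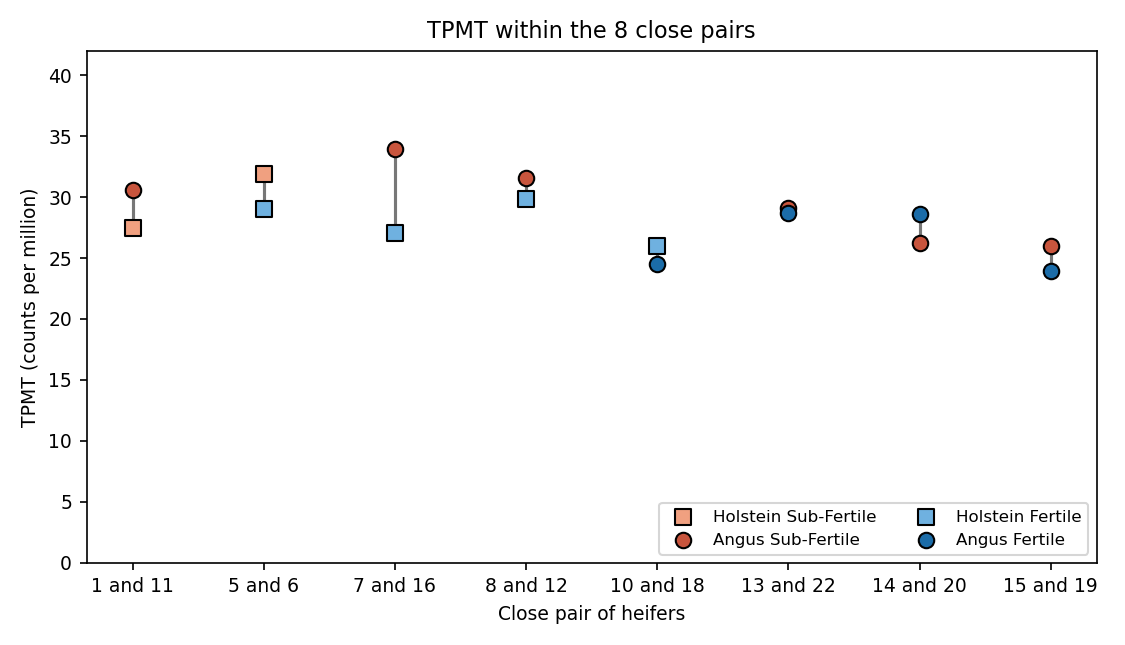
TPMT in CPM in the 2 heifers of each of the 8 close pairs, joined by a line and marked by breed and fertility group. The Fertile heifer is lower in 5 of the 6 pairs that join the fertility groups, and the widest pair is heifers 7 and 16, at 27.0 and 33.9 CPM.

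The level of TPMT was set against the depth of the libraries and against the first principal component of the transcriptome (500 genes of highest variance, 25.3% of which it held), with breed and fertility taken out. For log2 total counts, Pearson's r was 0.0876 (permutation p = 0.695, adjusted over 2 relations p = 0.695) and Spearman's rho 0.0559 (permutation p = 0.804, adjusted p = 0.804) over 22 heifers. Without heifers 20 and 21, the farthest in depth, r was −0.214, and it was 0.230 within Angus and −0.0878 within Holstein. No relation of TPMT with depth was detectable. For the first principal component, r was −0.182 (permutation p = 0.415, adjusted p = 0.695) and rho −0.203 (permutation p = 0.362, adjusted p = 0.723). Without heifers 13 and 22, r with the component was −0.378, and within breeds it was 0.0535 in Angus and −0.701 in Holstein. The difference of r between breeds was not tested.

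Although TPMT varied by little, its variation from heifer to heifer ran parallel to that of many genes. Likeness was measured as Pearson's r of log2 CPM over the 22 heifers with breed and fertility taken out, and named genes with a mean level of at least 10 CPM were ranked by it. These r values are descriptions with no test, since the genes were picked from the extremes. Over the 13525 other tested genes, r had a median of 0.00951, a 5th percentile of −0.411 and a 95th percentile of 0.571. There were 125 genes with r above 0.7 and 0 with r below −0.7.

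The 5 named genes with the highest r are given first. ARID4A, a chromatin protein that binds the retinoblastoma protein, had r = 0.851 (rho 0.746) and stood highest of all tested genes. SCAF11, a splicing factor, had r = 0.847 (rho 0.770). BIRC2, a ubiquitin ligase that restrains cell death, had r = 0.816 (rho 0.804), and CNOT6L, a deadenylase that shortens the tails of messenger RNAs, had r = 0.814 (rho 0.799). NIPBL, which loads the cohesin ring onto chromosomes, had r = 0.798 (rho 0.708). In each breed alone these 5 genes kept r of 0.804 or more in Angus and 0.658 or more in Holstein. With 1 mean value for each close pair, which leaves 14 values, r ranged from 0.780 for BIRC2 to 0.892 for NIPBL.

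At the other end stood the 5 named genes with the lowest r. UQCR11, a subunit of respiratory complex III, had r = −0.694 (rho −0.648). ROMO1, a protein of the inner mitochondrial membrane, had r = −0.670 (rho −0.627), and ATOX1, the cytosolic copper chaperone, had r = −0.642 (rho −0.577). AURKAIP1, a protein of the mitochondrial ribosome, had r = −0.635 (rho −0.675), and COX5B, a subunit of respiratory complex IV, had r = −0.630 (rho −0.572). Apart from AURKAIP1 (−0.566 in Angus and −0.773 in Holstein), these opposite relations lay mostly in Angus, where r was between −0.833 and −0.810, against −0.338 to −0.214 in Holstein. The difference between breeds was not tested.

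**Figure D3:**
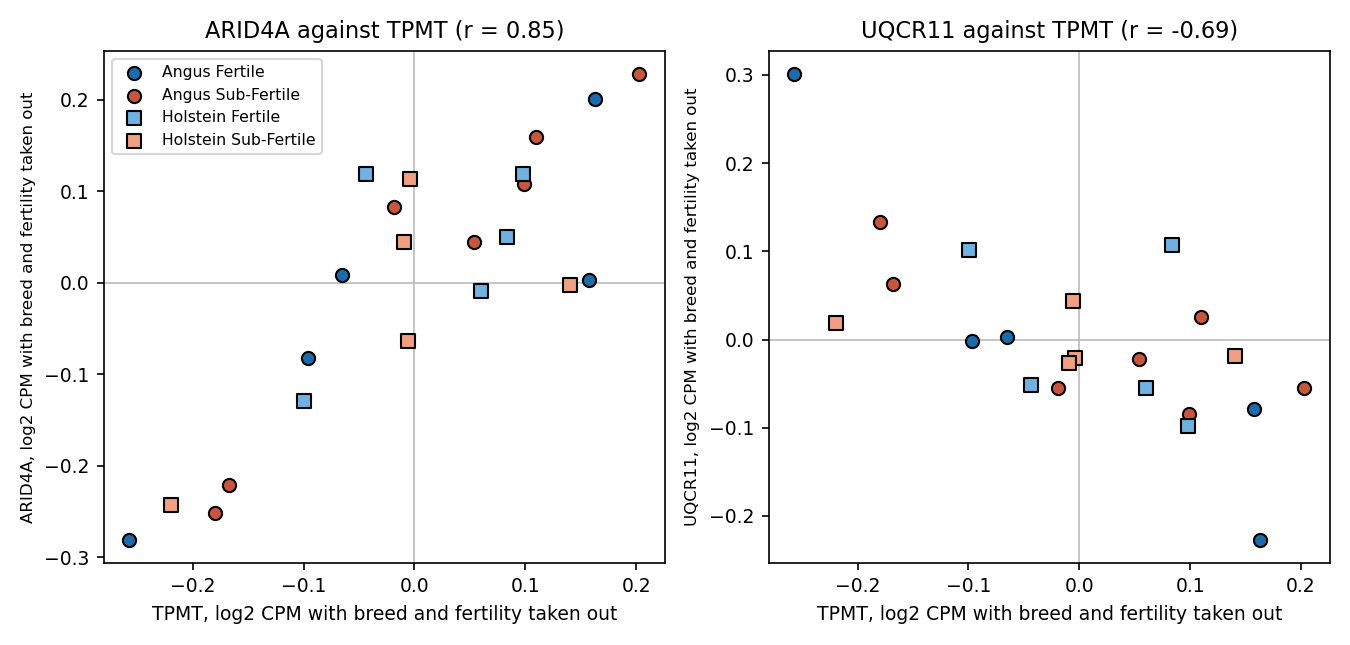
ARID4A (left) and UQCR11 (right) against TPMT in the 22 heifers, all as log2 CPM with breed and fertility taken out, so that 0 is the level fitted for a heifer's breed and fertility. ARID4A rises along with TPMT (r = 0.85) and UQCR11 runs opposite (r = −0.69), with heifer 21, the Angus Fertile heifer at the far left, lowest in TPMT and in ARID4A and highest in UQCR11.

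Heifer 21, with the lowest TPMT level and the smallest library, bore on these ranks. Without heifers 4 and 21, the farthest in TPMT, r was between 0.718 and 0.849 for the 5 most similar genes and between −0.694 and −0.501 for the 5 most opposite. When heifer 21 alone was left out and the ranking repeated, 5 of the 10 genes stayed among the extremes. With TMM factors 5 of 10 stayed as well, and with Spearman's rho 5 of 10.

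The named genes that ran parallel to TPMT spanned more of the chromosome than the named genes that ran opposite. Span was not set against r over all tested genes. Among 1017 named genes with a mean of at least 10 CPM, the 98 with r above 0.6 had a median span of 73.1 kb and the 33 with r below −0.5 a median span of 4.72 kb, against 22.8 kb for all 1017. All 98 of the former had a lower fitted mean in Fertile heifers and all 33 of the latter a higher one, but these names exist here only for genes with the smallest p in the study's fertility comparison. Over all tested genes, named or not, 488 of 528 with r above 0.6 had a lower mean in Fertile heifers (92.4%), as had 45 of 215 with r below −0.5 (20.9%) and 51.0% of all 13525. TPMT was itself chosen on the fertility contrast, where it was lower in Fertile heifers. That choice by itself favours the same lean in genes that vary along with TPMT, and the other lean in genes that run opposite. How much of these shares came from it was not tested. These shares are therefore descriptions and not a result about fertility. The limits on r were set after the values had been seen, and genes are not independent of each other. The parts of RNA integrity and of library composition in this were not tested.

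The same relation was described for 17 other named genes that the fertility comparison brings forward, by the study or by the rule that picked TPMT. Of 14 such genes higher in Fertile heifers, 13 had r below 0 with TPMT, from −0.555 for COPE, a coat protein of Golgi vesicles, to −0.0964 for MRPS24, a protein of the mitochondrial ribosome. Among them were ATP5MC1, a membrane subunit of ATP synthase (r = −0.469), and NDUFA10, a subunit of respiratory complex I (r = −0.451). The exception was ASAP3, a regulator of Arf proteins (r = 0.233). All 3 genes lower in Fertile heifers had r above 0, with 0.363 for DNAI7, an axonemal dynein chain, 0.433 for CEP170, a centrosomal protein, and 0.525 for MLLT10, a cofactor of histone methylation. For APMAP, an adipocyte membrane protein, r was −0.275 and became 0.0244 with 1 mean value for each close pair. TPMT and these genes came from the same fertility contrast, which by itself favours signs of r that follow the direction of each gene. The counts of signs are therefore descriptions, and all tested genes are not a like background for them. Over all tested genes 6925 had r above 0 and 6600 below. Because of the close pairs the 22 heifers are fewer than 22 independent values behind each r.

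**Figure D4:**
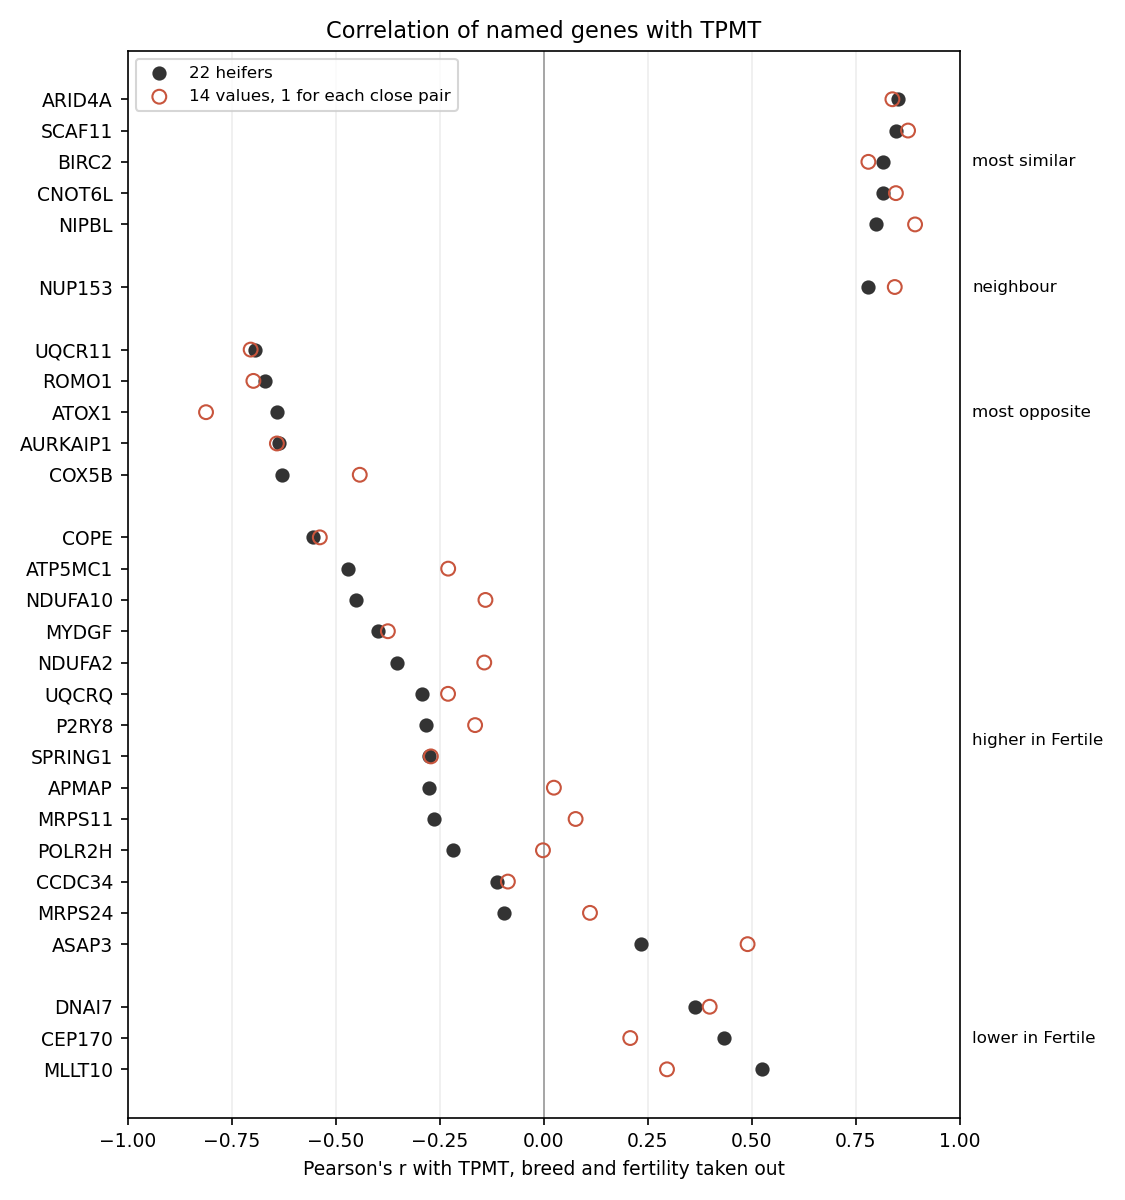
Pearson's r with TPMT for the genes named in the text, over 22 heifers (filled) and over 14 values with 1 mean for each close pair (open), with breed and fertility taken out. The most similar genes and NUP153 stay between 0.778 and 0.892 in both, while several genes higher in Fertile heifers move towards or past 0, such as APMAP from −0.275 to 0.0244.

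NUP153, a protein of the nuclear pore basket, was the measured named gene nearest to TPMT on the chromosome, with 301 kb between them (chromosome 23, 39755907 to 39826783, ARS-UCD1.2). Its r with TPMT was 0.778 (rho 0.814), rank 28 of 13525, with 0.802 in Angus and 0.756 in Holstein and 0.752 without heifers 4 and 21. NUP153 has a name here through a small p in the study's fertility comparison, so all tested genes are not a like background for its rank. It spans 70877 bp, near the median of 73.1 kb for named genes with r above 0.6. Whether nearness on the chromosome bears on its r was not tested. NUP153 itself differed less between groups than TPMT, with log2 fold changes of −0.060 (standard error 0.039) in Fertile relative to Sub-Fertile heifers and 0.056 (standard error 0.039) in Holstein relative to Angus heifers. The genes between them and on the other side of TPMT, among them DEK, KDM1B, NHLRC1 and KIF13A, have no name in the table used here and are not described.

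The enzymes around TPMT were looked at through 4 lists: thiopurine and 6-mercaptopurine metabolism, the methionine and S-adenosylmethionine cycle, other small-molecule methyltransferases, and purine synthesis and salvage. Of their 74 genes, 10 had a name here, and all 10 were tested. For fertility, 3 of the 10 were higher in Fertile heifers at an unadjusted p under 0.05 and 0 were lower, against 1.66% and 0.954% of all tested genes. Since names existed only for genes of small p in this contrast, the count is not a result about the lists. Counted in either direction, the 3 genes became 1 without heifer 10, 6 without heifer 7, 5 without heifer 2, 15 or 21, 7 with DESeq2 (GNMT among them, lower in Fertile heifers) and 0 with close pairs as blocks or without heifers 10 and 18. None of the 10 had an adjusted p under 0.05, and for breed 0 of 10 had an unadjusted p under 0.05 with edgeR or with DESeq2. All 10 had r below 0 with TPMT, between −0.390 and −0.00493, against 6600 of 13525 tested genes. The names and TPMT came from the same contrast, so this too is not a result about the lists.

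Among the proteins that handle thiopurines, SLC29A1, a nucleoside carrier that brings them into cells, had a log2 fold change of 0.40 (standard error 0.170) in Fertile heifers. Its median level was 19.6 CPM (highest 33.8) in Angus Fertile and 15.2 CPM (highest 19.3) in Angus Sub-Fertile heifers, and 20.1 CPM (highest 40.2) in Holstein Fertile and 16.3 CPM (highest 24.6) in Holstein Sub-Fertile heifers. Its groups overlapped in both breeds, and its r with TPMT was −0.377.

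In the cycle that supplies the methyl donor, SRM, which makes spermidine from decarboxylated S-adenosylmethionine, was 0.38 higher on the log2 scale in Fertile heifers (standard error 0.136). CTH, which makes cysteine from cystathionine, was 0.27 higher (standard error 0.122). SHMT2, the mitochondrial serine hydroxymethyltransferase, had 0.17 (standard error 0.095), and SLC25A26, the carrier of S-adenosylmethionine into mitochondria, 0.14 (standard error 0.078), both at an unadjusted p above 0.05 with edgeR, with SLC25A26 under it with DESeq2. Relative to Angus, Holstein heifers had −0.16 for CTH (standard error 0.123) and −0.083 for SLC25A26 (standard error 0.078), the members of this list with the smallest breed p.

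Of the other methyltransferases, GNMT, the glycine methyltransferase, had −0.24 in Fertile heifers (standard error 0.117), the direction of TPMT, at a level of 2.34 CPM over all heifers. NTMT1, which methylates the amino end of proteins, had 0.17 (standard error 0.095), and COQ3, which methylates precursors of coenzyme Q, 0.11 (standard error 0.069). None of these passed an unadjusted p of 0.05 with edgeR, while GNMT and NTMT1 did with DESeq2. In purine metabolism, ADA, which deaminates adenosine, had 0.37 (standard error 0.182), and ADSL, an enzyme of purine synthesis, 0.074 (standard error 0.047). With edgeR neither passed an unadjusted p of 0.05, and ADA did with DESeq2.

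Of 76 markers of white cell types, platelets and red blood cells, 8 had a name here, and the monocyte, T cell, natural killer cell and red blood cell lists had none, so the makeup of the cells could be read only in part. As with the pathway lists, these names exist only for genes of small p in the fertility contrast, so counts of them are no result about a cell type. Of 13 neutrophil markers 3 had a name, and 2 of these passed an unadjusted p of 0.05 in edgeR with a lower level in Fertile heifers, against 0.954% of all tested genes. CSF3R, the receptor of granulocyte colony-stimulating factor, had −0.43 (standard error 0.184), TGM3, a transglutaminase, −0.98 (standard error 0.453), and these passed. MMP9, a granule protease, had −0.74 (standard error 0.368), which passed an unadjusted p of 0.05 with DESeq2 but not with edgeR. Summed over the 3, the level ranged from 241 to 390 CPM in Angus Fertile, 229 to 527 CPM in Angus Sub-Fertile, 118 to 352 CPM in Holstein Fertile and 261 to 650 CPM in Holstein Sub-Fertile heifers.

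The log2 sum of these neutrophil markers had r = 0.149 with TPMT once breed and fertility were taken out. Most of the sum was CSF3R, with a mean of 284 CPM against 36.5 for TGM3 and 2.13 for MMP9. Taken singly, r with TPMT was 0.0961 for CSF3R, 0.324 for TGM3 and 0.368 for MMP9. The 2 named of 9 platelet markers, GP9 and ITGA2B, subunits of platelet receptors for von Willebrand factor and fibrinogen, summed to 33.1 to 68.8 CPM in Angus Fertile, 33.8 to 50.6 CPM in Angus Sub-Fertile, 37.5 to 73.1 CPM in Holstein Fertile and 33.8 to 47.2 CPM in Holstein Sub-Fertile heifers. In Fertile heifers the log2 fold change was 0.28 for ITGA2B (standard error 0.122), which passed an unadjusted p of 0.05 with edgeR, and 0.63 for GP9 (standard error 0.318), which passed with DESeq2 alone. The log2 sum of both had r = −0.503 with TPMT. For CCR3 and FCER1A, receptors of eosinophils and basophils and 2 of 8 markers listed, the sum ranged from 31.3 to 73.4 CPM over the groups, with r = 0.0628. The sum was mostly CCR3 (mean 40.2 CPM against 9.99), and the 2 markers went opposite ways. In Fertile heifers the log2 fold change was 0.32 for CCR3 (standard error 0.181) and −0.28 for FCER1A (standard error 0.159). Taken singly, r with TPMT was 0.131 for CCR3 and −0.186 for FCER1A. BANK1, an adaptor of B cells and 1 of 8 markers listed, had r = 0.193 and was 0.25 higher in Holstein heifers on the log2 scale (standard error 0.099, unadjusted p = 0.0178 and adjusted p = 0.437, edgeR's quasi-likelihood test with Benjamini-Hochberg adjustment). The part of cell makeup in the TPMT values was not tested.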

How the data were processed

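RNA of white blood cells was sequenced from 22 heifers. The authors aligned reads to ARS-UCD1.2 with hisat2, filtered out unmapped, secondary and duplicate alignments, and deposited raw counts of fragments per Ensembl gene from featureCounts. The submitters' processing notes name HISAT2 and SAMtools without versions. Groups came from the sample labels. Here, a gene was tested if 5 or more heifers had a CPM over 1 after TMM scaling (13526 genes). In edgeR 4.0.16 (R 4.3.3), with summed counts as library sizes and robust estimation, breed and fertility were terms of the main model, and a second model added their interaction. The Benjamini-Hochberg adjustment ran over all tested genes. DESeq2 1.42.0 and limma 3.58.1 (voom) were alternatives, with other filters, TMM factors, added terms, close pairs as blocks, and heifers left out. The fit was tested on simulated data. Correlations used log2 CPM with a prior count of 2. Their permutation tests were 2-sided, with 100000 resamples for the main results and fewer for the alternatives (scipy 1.17.1, numpy 2.4.6, Python 3.11.15). A close pair is 2 heifers each nearest to the other, with a biological coefficient of variation under 0.5 of the median of all pairings, over genes with a mean CPM above 20.

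Symbols came from the study's annotation of 1401 genes, those with the smallest p in its fertility comparison, of which 1229 have a symbol, and RefSeq's table (assembly ARS-UCD2.0) was used for neighbour names. No amino acid or base sequence was used. Named genes are TPMT, genes brought forward for fertility, the 5 named genes with the highest and the 5 with the lowest r, up to 5 members of each pathway list with the smallest p, and neighbours within 500 kb. 1 gene of the fertility set is not reported here. TPMT, the lists and these rules were chosen with earlier results of these data known. P-values of the main tests set a difference or a correlation against the spread between heifers. They treat heifers as independent, which the close pairs are not. Intervals on single heifers (95% exact Poisson) cover counting error only.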

Additional observations from a re-analysis of the deposited data

How the results depend on the processing

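The breed difference of TPMT stayed above 0 under 13 of 14 alternatives (0.087 to 0.15 on the log2 scale, adjusted p 0.382 or more) and with each heifer left out (0.091 to 0.14), but was −0.082 with close pairs as blocks. The fertility difference, which has no test, was −0.23 to −0.16 under 13 alternatives and −0.22 to −0.17 with each heifer left out, and −0.055 with close pairs as blocks. The interaction stayed between 0.0095 and 0.11, with adjusted p of 0.745 or more, and the within-group SD between 0.128 and 0.144. The correlation with log2 total counts was −0.231 with TMM factors, −0.0319 with breed and fertility not taken out, −0.0878 within Holstein and −0.138 to 0.259 with each heifer left out, below 0 without heifer 20 or heifer 21. With the component recomputed in each breed, its correlation with TPMT was 0.133 in Angus and −0.691 in Holstein (permutation p = 0.0264, not adjusted), and −0.409 to −0.0137 with each heifer left out. That p was the lowest among the alternatives for the correlations with depth and the component. The 3 of 10 named pathway genes at an unadjusted p under 0.05 for fertility became 5 with log2 total counts as a term, 7 with DESeq2, 0 with close pairs as blocks, 0 without heifers 10 and 18, and 1 to 6 with each heifer left out, where heifer 10 gave the 1, heifer 7 the 6, and heifers 2, 15 and 21 gave 5. The count for breed was 0 throughout. Causes of these shifts were not tested. A filter on CPM without TMM, chosen after seeing the data, kept 13535 genes and changed no call, and neither did values averaged over close pairs, also chosen after seeing the data, for the correlations with depth and the component. The labels give no replicate numbers that groups share, so close pairs were the only blocks. The main limits are that the fertility contrast chose TPMT, that close pairs make heifers less than independent, that breed goes with age and protocol, that names cover few genes, and that 5 to 7 heifers a group leave standard errors of 0.061 to 0.125 on these differences.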
